A study of Caenorhabditis elegans with 11 samples.

Results

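The bantam-related mir-58 family of the nematode Caenorhabditis elegans was followed over 4 ages through its 4 abundant hairpins, cel-mir-58a, cel-mir-80, cel-mir-81 and cel-mir-82 (mir-58a, mir-80, mir-81 and mir-82 from here on). They were taken by name from the 250 microRNA (miRNA) hairpins of the deposited count table, and all 4 were present and passed the filter on low counts. A hairpin is the precursor from which mature miRNAs are cut, and the table gives 1 count per hairpin name and library, without separating its arms. Small RNA had been sequenced from total RNA of whole hermaphrodites of N2, the wild-type laboratory strain, at 1 day, 5 days, 10 days and 20 days of age, with 3, 3, 3 and 2 libraries. The labels name no mutation, transgene or treatment in any group, and they do not say from which stage the days were counted or whether libraries of 1 age came from separate cultures. P-values therefore rest on how much these libraries vary, and that variation may be technical only.

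An miRNA guides an Argonaute protein to messenger RNAs that pair with its seed, the stretch near its 5′ end, and the messages are then repressed or degraded. Members of a seed family can share targets. The mir-58 family is the worm relative of Drosophila bantam, a growth-promoting miRNA, and worms that lack its abundant members together are small and have defects in egg laying and dauer formation, whereas loss of a single member has mild effects. Known targets include components of the TGF-β pathways that set body size and dauer entry and the p38 kinase gene pmk-2, which the family keeps silent outside neurons. mir-80 has also been linked to the response to dietary restriction. The mature miRNAs of mir-81 and mir-82 are nearly identical.

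The libraries held 955506 to 1800586 counts, and levels are given as CPM, counts scaled to a common library size and then by TMM, a scaling that takes most hairpins as unchanged. No spike-in is named, so each level is relative to the rest of its own library. A change was called where the adjusted p, corrected over the 145 tested hairpins, was under 0.05. In some comparisons most hairpins were called: 64.1% at 10 against 1 day, 62.8% at 20 against 1 day and 60.7% at 20 against 5 days. The premise of TMM is therefore in doubt, also for the other comparisons, as all of them shared the same scaling factors. Alternatives named beside a value changed the scaling (RLE or upper-quartile factors, total counts alone, or TMM on the hairpins outside the 4), the filter on low counts, the tool, a term for lane, or the libraries included. DESeq2 also used its own size factors, with nearly the same log2 changes as RLE factors, and limma also took lane as a block. Other filters and fits to fewer libraries also re-estimated the factors. Numbers of alternatives are therefore not numbers of separate checks. Lane is the number after the letter L in a library's description, which the labels do not explain. A fit of the age groups with a fixed lane term had almost as many terms as libraries. Its calls therefore rest mainly on the spread of other hairpins and are weak evidence. In whole worms, fewer cells of a type and less of an miRNA per cell cannot be told apart. Other hairpins moved over the same ages: all 8 markers of oocytes and embryos (the mir-35 family) were detected in every library, and their summed level lay at 155415 to 205517 CPM at 1 day, 184346 to 210332 at 5 days, 265636 to 294854 at 10 days and 288292 to 318372 at 20 days. The muscle hairpin mir-1 lay at 140 to 175 CPM at 20 days, against 453 to 580 CPM at 1 day. The 3 intestinal markers summed to 12071 to 21417 CPM at 20 days, against 3934 to 5876 CPM at 1 day, but they moved apart at 20 against 1 day: mir-240 (log2 change 2.33) and mir-786 (1.99) rose and mir-60 (-1.30) fell, with edgeR adjusted p of 6.97e-08, 2.15e-09 and 2.54e-06. The 3 neuronal markers summed to 37.1 to 40.2 CPM at 20 days, against 54.4 to 62.6 CPM at 1 day. Of these, lsy-6 alone passed at 20 against 1 day (log2 change -1.39, edgeR adjusted p = 0.00109). mir-124 (-0.53, adjusted p = 0.148) and mir-791 (-0.21, adjusted p = 0.544) did not. The glial mir-228 lay at 122154 to 157292 CPM at 20 days, against 72366 to 90836 CPM at 1 day. None of the markers was at 0, and their part in the changes of the mir-58 family was not tested.

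The 4 hairpins lie at 3 places in the genome (Ensembl release 115 annotation of WBcel235, 1-based coordinates). mir-58a is on chromosome IV, from 3233254 to 3233350 on the plus strand, in an intron of Y67D8A.2 and an exon of the non-coding RNA gene Y67D8A.6, both on the same strand. mir-80 is on chromosome III, from 8865270 to 8865367 on the minus strand, outside protein-coding genes and opposite the non-coding RNA gene K01F9.6. mir-81 (2431072 to 2431179, plus strand) and mir-82 (2435258 to 2435354, minus strand) are on chromosome X, 4078 bases apart on opposite strands, both within introns of gid-2. The 4 hairpins are 97, 98, 108 and 97 bases long in the order mir-58a, mir-80, mir-81 and mir-82, and their annotated mature products are 22 or 23 bases long, so their counts compare like with like for length.

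mir-82 was the most abundant miRNA of the table at 1, 5 and 10 days, with rank 1 in 9 of 11 libraries and rank 3 in both 20-day libraries. Its level was 121616, 131957 and 147168 CPM at 1 day, 168110, 176358 and 151499 CPM at 5 days, 186500, 171706 and 197436 CPM at 10 days, then 116759 and 105680 CPM at 20 days. Every 5- and 10-day library lay above every 1- and 20-day library, both 20-day libraries lay below the 1-day libraries, and the 5- and 10-day libraries overlapped. The 4 ages differed by edgeR's quasi-likelihood F-test (adjusted p = 7.97e-05). mir-82 rose at 5 against 1 day (log2 change 0.31 ± 0.11 (SE), adjusted p = 0.0228). It also rose at 10 against 1 day (0.47 ± 0.11, adjusted p = 0.000851). It fell at 20 against 10 days, by 1.67-fold (log2 change -0.74 ± 0.12, adjusted p = 8.14e-05). The rise at 5 days no longer passed with upper-quartile scaling (0.14), with a minimum mean of 50 CPM (0.24) or without replicate 1 of the 1-day group (0.20). The rise at 10 days did not pass with total counts alone (0.19) or a minimum mean of 50 CPM (0.14). Between 20 and 1 day the log2 change was -0.26 ± 0.12 (95% interval -0.52 to -0.01) and did not pass (adjusted p = 0.0612), but it passed as lower with total counts alone (-0.46), with a minimum mean of 50 CPM (-0.46), when the libraries were scaled to the other hairpins (-0.44), with DESeq2 (-0.24) and when a lane term was fitted (-0.22). It also passed when replicate 1 of the 1-day libraries was omitted (-0.34), and on omission of replicate 1 or of replicate 2 at 5 days (-0.27 each). At 10 against 5 days its change of 0.16 ± 0.11 (adjusted p = 0.247) passed as higher with upper-quartile scaling (0.39) or a lane term (0.32) only.

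mir-58a, the founding member, had the largest fold change of the 4 between 2 ages with TMM, but this order depended on the scaling. In percent of all counts its means ran from 5.26% (20 days) to 10.8% (10 days). Those of mir-80 ran from 4.43% (20 days) to 10.2% (5 days). Those of mir-81 ran from 1.13% (20 days) to 2.62% (1 day), and those of mir-82 from 10.6% (20 days) to 17.1% (5 days). mir-58a stood at 44007, 50107 and 59539 CPM at 1 day, 108232, 88653 and 85030 CPM at 5 days, 124491, 117355 and 114930 CPM at 10 days, and 61358 and 48834 CPM at 20 days. The 5- and 10-day libraries did not overlap with the others or with each other, while the 1- and 20-day libraries overlapped. mir-58a rose 1.83-fold at 5 against 1 day (log2 change 0.88 ± 0.13 (SE), adjusted p = 2.10e-05) and 2.32-fold at 10 against 1 day (1.22 ± 0.13, adjusted p = 3.67e-07), and then fell 2.16-fold at 20 against 10 days (-1.11 ± 0.15, adjusted p = 1.02e-05). At 20 against 1 day the change was 0.11 ± 0.14 with a 95% interval of -0.20 to 0.41 (adjusted p = 0.536). With a lane term in the fit it passed as higher (0.24, edgeR adjusted p = 0.00749), but that fit had almost as many terms as libraries. The step between 10 and 5 days (0.34 ± 0.13, adjusted p = 0.0484) passed under 6 of 22 alternatives and lost its call in the other 16, where it lay between 0.08 and 0.36. Among those were RLE factors (0.15), total counts (0.15) and the omission of any 1 of 9 of the libraries, all but replicate 3 of the 1-day group and replicate 1 of the 5-day group. In its rank within a library, mir-58a stood at 5 in every 1-day library, at 2 to 4 at 5 and 10 days, and at 6 in both 20-day libraries.

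**Figure D1:**
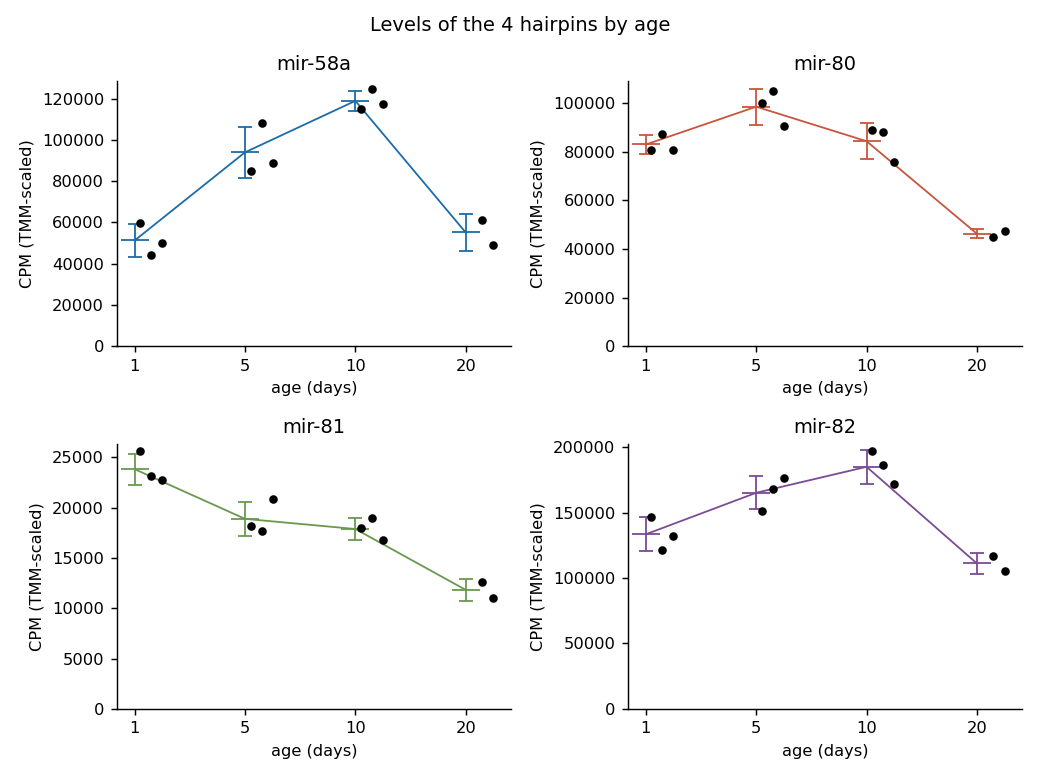
Level of each of the 4 hairpins in TMM-scaled CPM (vertical axes, from 0, with a different range in each panel) at 4 ages (horizontal axes, evenly spaced). Black points are libraries, drawn beside the mean ± SD of 3 libraries, or of 2 at 20 days, and lines join the means. The means of mir-58a and mir-82 are highest at 10 days, that of mir-80 at 5 days and that of mir-81 at 1 day, and all but that of mir-58a are lowest at 20 days.

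mir-80 was lower at 20 days than at each other age. It stood at 87466, 80717 and 80983 CPM at 1 day, 105261, 90494 and 100116 CPM at 5 days, 88194, 75973 and 89055 CPM at 10 days, and 44995 and 47576 CPM at 20 days. The 20-day libraries lay far below all others, the 1- and 10-day libraries overlapped, and the 5-day libraries lay above those of 1 and 10 days. mir-80 fell 1.79-fold at 20 against 1 day (log2 change -0.84 ± 0.12 (SE), adjusted p = 5.05e-06). Set against 10 days, it fell 1.82-fold at 20 days (-0.87 ± 0.12, adjusted p = 1.09e-05). The changes at 5 against 1 day (0.25 ± 0.10, adjusted p = 0.0582) and between 10 and 5 days (-0.22 ± 0.10, adjusted p = 0.0981) did not pass, although the first passed as higher under 8 of 22 alternatives and the second as lower under 13. At 10 against 1 day the change was 0.02 ± 0.10 (95% interval -0.20 to 0.24, adjusted p = 0.867). That value was negative under 15 of 22 alternatives, and it passed as a fall with total counts alone (-0.26, adjusted p = 0.0162) and with a minimum mean of 50 CPM (-0.31, adjusted p = 0.0128).

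mir-81, the least abundant of the 4, fell over the whole span. It stood at 23113, 22760 and 25614 CPM at 1 day, 17658, 20830 and 18176 CPM at 5 days, 18939, 16747 and 17951 CPM at 10 days, and 12594 and 11055 CPM at 20 days. Every 1-day library lay above all others and both 20-day libraries lay below all others, while the 5- and 10-day libraries overlapped. In the fit mir-81 fell at 5 against 1 day (log2 change -0.34 ± 0.11 (SE), adjusted p = 0.0194), at 10 against 1 day (-0.41 ± 0.11, adjusted p = 0.00347), at 20 against 10 days (-0.60 ± 0.13, adjusted p = 0.000756) and, by 2.02-fold, at 20 against 1 day (-1.01 ± 0.13, adjusted p = 1.64e-06). The fall at 5 days did not pass on omission of replicate 3 at 1 day (-0.28) or replicate 3 at 5 days (-0.31), that at 10 days did not pass with upper-quartile scaling (-0.35), and that at 20 against 10 days did not pass without replicate 2 of the 20-day group (-0.29, adjusted p = 0.0958). The change at 10 against 5 days was -0.08 ± 0.11 (95% interval -0.32 to 0.16, adjusted p = 0.607), and it passed as a fall under 7 of 22 alternatives, such as RLE factors (-0.28). mir-81 ranked 10th or 11th at 1 and 5 days, 13th in each 10-day library, and 17th and 20th at 20 days.

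Set against the table as a whole, the common feature of the 4 abundant hairpins was the fall at 20 days against 5 and 10 days. At 20 against 10 days all 4 hairpins fell, where 65 of 145 tested hairpins (44.8%) changed and 36 (24.8%) fell. Their median log2 change was -0.80, against -0.09 over all tested hairpins. At 20 against 5 days all 4 also fell, by 0.77 (mir-58a), 1.09 (mir-80), 0.68 (mir-81) and 0.57 (mir-82) on the log2 scale, where 60.7% of hairpins changed and 26.2% fell, with medians of -0.72 over the 4 and 0.02 over all. In either comparison each of the 4 had its 20-day libraries apart from those of the earlier age, which was so for 67.6% of all hairpins at 20 against 10 days and 69.7% at 20 against 5 days. These comparisons share the 20-day libraries. The split of all calls at 20 against 10 days depended on the scaling, with 30 falls among 72 calls with RLE factors and 47 among 70 with upper quartiles. At 20 against 5 days 38 of 88 calls were falls, and 51 of 90 when libraries were scaled to the hairpins outside the 4. The 4 falls themselves passed in both comparisons under each of these scalings.

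In the other comparisons of 2 ages the 4 did not move as 1. At 5 against 1 day mir-58a and mir-82 rose and mir-81 fell, 3 of 4 against 47.6% of all tested hairpins. Each of the 4 had its 5-day libraries apart from its 1-day libraries, as had 52.4% of all hairpins. At 10 against 1 day the same 3 passed in the same directions, where 64.1% of hairpins changed. At 20 against 1 day mir-80 and mir-81 fell, 2 of 4 against 62.8%, and at 10 against 5 days mir-58a alone passed, 1 of 4 against 37.2%. All 4 also passed the test among the 4 ages (adjusted p of 2.98e-07 for mir-58a, 2.19e-06 for mir-80 and 1.46e-05 for mir-81), which 80% of all tested hairpins passed. The split of all calls depended on the scaling here too. Of the calls at 5 against 1 day 31 of 69 were rises, and 21 of 67 with upper quartiles. At 10 against 1 day 54 of 93 were rises, and 40 of 91 with total counts. At 10 against 5 days 42 of 54 were rises, but 26 of 54 with RLE factors, 25 of 54 with total counts, 26 of 51 when scaled to the hairpins outside the 4, and 65 of 74 with upper quartiles. The choice of scaling moved all hairpins together: over all tested hairpins the median log2 change at 10 against 5 days was 0.19 with TMM, and it shifted by -0.20 with RLE factors, total counts or scaling to the hairpins outside the 4, and by 0.22 with upper quartiles. At 10 against 1 day it shifted by -0.13 with RLE factors, -0.28 with total counts and -0.18 with scaling to the hairpins outside the 4. At 20 against 1 day it shifted by -0.20 with total counts, -0.11 with upper quartiles and -0.17 with scaling outside the 4, and at 20 against 5 days by -0.12 with total counts and -0.19 with scaling outside the 4. At 20 against 10 days it shifted by 0.15 with RLE factors and -0.18 with upper quartiles, and at 5 against 1 day by -0.18 with upper quartiles.

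**Figure D2:**
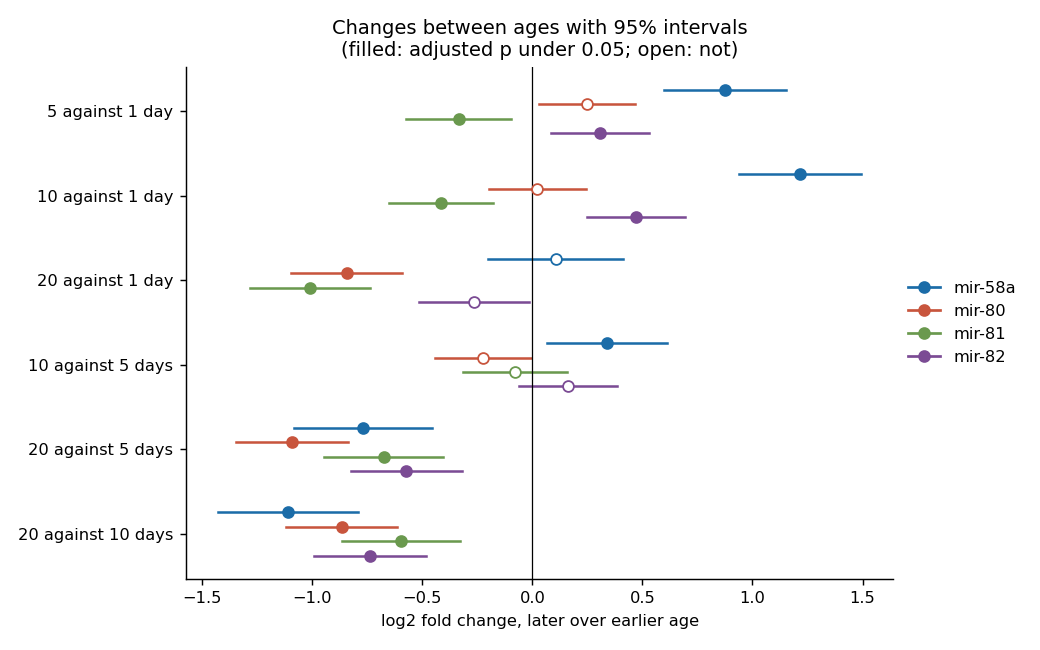
Log2 fold change of each hairpin, later over earlier age (horizontal axis), in the 6 comparisons of 2 ages (rows), with 95% intervals from the edgeR fit to all 11 libraries. Filled points passed an adjusted p of 0.05 over 145 hairpins. In the lower 2 rows all 4 hairpins lie below 0, between -0.57 and -1.11.

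The middle ages were also set against the outer ones, as the mean of 5 and 10 days against the mean of 1 and 20 days. A fall at 20 days alone gives a positive value in this contrast, so it does not test a rise and return. mir-58a was higher at the middle ages by 0.99 ± 0.10 on the log2 scale (SE, adjusted p = 2.94e-07), mir-80 by 0.56 ± 0.08 (adjusted p = 1.84e-05) and mir-82 by 0.52 ± 0.08 (adjusted p = 4.73e-05). For mir-80 neither middle age passed against 1 day, and 20 days lay below 1 day by 0.84. mir-81 had a difference of 0.13 ± 0.08 (95% interval -0.05 to 0.31) that did not pass (adjusted p = 0.230). In this contrast 46.9% of all hairpins passed and 23.4% passed as higher. In a fit of a slope on log2 age, mir-81 fell by 0.19 ± 0.04 per unit of log2 age (adjusted p = 0.00179), where 48.3% of all hairpins passed, 38 of 70 as rises, or 32 of 78 with total counts. With lane as a fixed term the slope of mir-81 did not pass (-0.24, adjusted p = 0.0526). The slopes of mir-58a (0.19 ± 0.10), mir-80 (-0.11 ± 0.07) and mir-82 (0.03 ± 0.06) did not pass. Without the 20-day group those of mir-58a (0.34, adjusted p = 1.47e-05) and mir-82 (0.11, adjusted p = 0.00453) passed as rises, and mir-58a also passed without replicate 1 (0.23) or replicate 2 (0.24) of that group. That of mir-80 passed as a fall with total counts (-0.17, adjusted p = 0.0386), with a minimum mean of 50 CPM (-0.18, adjusted p = 0.0370) and on age in days (adjusted p = 0.00567).

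Libraries with the same lane number allowed comparisons of single libraries, without replicates. At 20 against 1 day (lane 1) the log2 differences were 0.15 for mir-58a, -0.88 for mir-80, -1.06 for mir-81 and -0.20 for mir-82. At 5 against 1 day (lane 3) they were 0.86, 0.38, -0.54 and 0.19 in the same order of hairpins, and at 20 against 10 days (lane 7) -0.91, -0.98, -0.51 and -0.76. All 12 had the sign of the comparison over all libraries, which held these same libraries. Where the libraries of 2 ages did not overlap, any pair of them gives that sign. This was so for all 4 hairpins at 5 against 1 day and at 20 against 10 days. At 20 against 1 day it was so for all but mir-58a, so the match is no separate check. At 10 against 5 days (lane 5) they were 0.55, -0.18, 0.06 and 0.30, of which that of mir-81 had the other sign. No lane held libraries of both 10 and 1 day or of both 20 and 5 days.

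Together the 4 hairpins held between 20.5% and 39.6% of all miRNA counts of a library. Their summed share was 30.9%, 32.6% and 32.6% in the 1-day libraries, 39.6%, 38.8% and 38.7% in the 5-day libraries, 36.6%, 37.0% and 36.5% in the 10-day libraries, and 22.3% and 20.5% in the 20-day libraries. The ages did not overlap in this share, which was highest at 5 days (39.0% ± 0.453, SD, n = 3) and lowest at 20 days (21.4% ± 1.27, n = 2). Wilson 95% intervals of these shares reached at most 0.0929 percentage points to either side, which covers counting error only, as the labels name no molecular identifiers and reads cannot be taken as separate molecules. These shares are not TMM-scaled, and the scaling can move the age of a peak. The mean of mir-82 was 17.1% of counts at 5 days and 16.7% at 10 days, but 165322 and 185214 CPM with TMM. Over the same ages the share of the mir-35 family was 18.8% ± 2.22 at 1 day, 20.3% ± 1.12 at 5 days, 25.2% ± 0.894 at 10 days and 29.0% ± 1.69 at 20 days. Among the counts outside that family, the 4 hairpins held 39.5% ± 2.05 at 1 day, 49.0% ± 1.00 at 5 days, 49.0% ± 0.740 at 10 days and 30.2% ± 2.51 at 20 days, so the 20-day libraries lay below the others also without the mir-35 counts, while the 5- and 10-day libraries then overlapped.

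**Figure D3:**
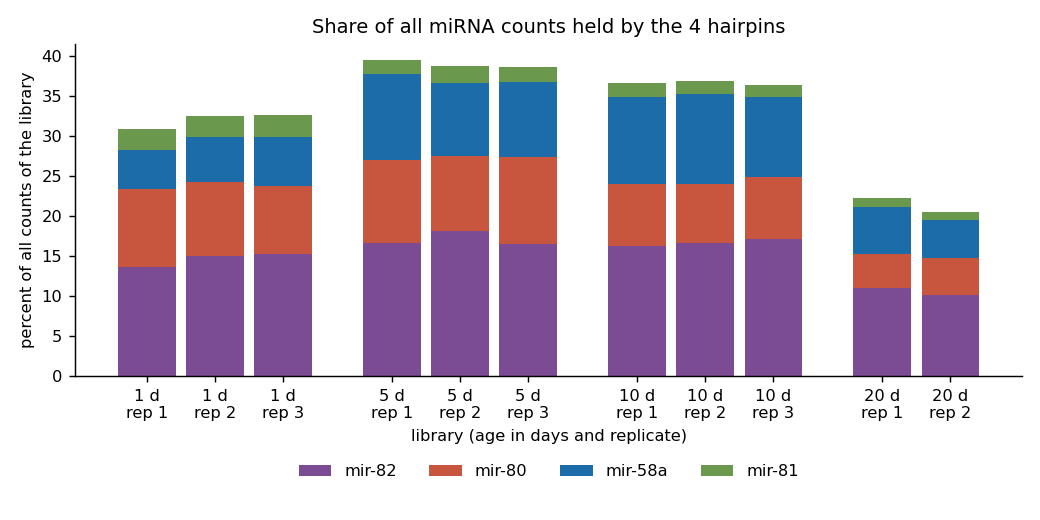
Percent of all counts of each library (vertical axis) held by mir-82, mir-80, mir-58a and mir-81 (stacked from the bottom), for the 11 libraries in order of age. The stacks reach 30.9% to 32.6% at 1 day, 38.7% to 39.6% at 5 days, 36.5% to 37.0% at 10 days and 20.5% to 22.3% at 20 days.

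Of the counts of the 4, mir-82 held 45.7% ± 1.53 at 1 day, 43.9% ± 2.59 at 5 days, 45.6% ± 1.33 at 10 days and 49.6% ± 0.0319 at 20 days (SD, n = 3, 3, 3 and 2). Across these ages the part of mir-58a was 17.5% ± 1.54, 24.9% ± 1.94, 29.3% ± 1.72 and 24.5% ± 2.21, while mir-80 held 28.6% ± 2.92, 26.2% ± 2.09, 20.7% ± 0.734 and 20.7% ± 2.29. mir-81 made up 8.17% ± 0.199 of them at 1 day and between 4.28% and 5.53% in every later library.

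Ratios of 2 members within a library do not depend on how libraries are scaled, and all 6 differed among the ages by exact permutation of the F statistic over 92400 assignments of the 11 libraries (a statistic without direction; adjusted over the 6 ratios, adjusted p of 0.00292 to 0.0146). The 6 ratios are built from 4 hairpins, so they are not separate results. How many ratios of other hairpins would pass was not computed, and 80% of all tested hairpins differed among the 4 ages by edgeR. The nearly identical pair parted early: the ratio of mir-81 to mir-82 counts was 0.190, 0.172 and 0.174 in the 1-day libraries, 0.105, 0.118 and 0.120 in the 5-day libraries, 0.102, 0.0975 and 0.0909 in the 10-day libraries, and 0.108 and 0.105 in the 20-day libraries (exact p = 0.000844, adjusted p = 0.00292). Every 1-day library lay above every later one, and the 5- and 20-day libraries overlapped. The ratio of mir-80 to mir-58a was 1.99, 1.61 and 1.36 in the 1-day libraries, 0.973, 1.02 and 1.18 in the 5-day libraries, 0.708, 0.647 and 0.775 in the 10-day libraries, and 0.733 and 0.974 in the 20-day libraries (exact p = 0.000974, adjusted p = 0.00292). It was above 1 in every 1-day library and below 1 in every 10- and 20-day library. The ratio of mir-81 to mir-58a averaged 0.470 ± 0.0494 at 1 day, 0.204 ± 0.0369 at 5 days, 0.150 ± 0.00692 at 10 days and 0.216 ± 0.0149 at 20 days (SD; adjusted exact p = 0.00312), and that of mir-82 to mir-58a 2.62 ± 0.146, 1.77 ± 0.218, 1.56 ± 0.138 and 2.03 ± 0.185 (adjusted exact p = 0.00312). The ratio of mir-82 to mir-80 averaged 1.61 ± 0.214 at 1 day, 1.69 ± 0.231 at 5 days, 2.20 ± 0.0747 at 10 days and 2.41 ± 0.264 at 20 days, and that of mir-81 to mir-80 averaged 0.288 ± 0.0265, 0.193 ± 0.0328, 0.212 ± 0.00967 and 0.256 ± 0.0336 (adjusted exact p = 0.0146 each). All 6 passed with any 1 library left out. The sources used here do not say how reads that match both mir-81 and mir-82 were counted, so the size of any ratio with 1 of that pair is uncertain; with mir-81 and mir-82 summed, their ratios to mir-58a and to mir-80 still differed among the ages (adjusted exact p = 0.00302 and 0.0247).

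**Figure D4:**
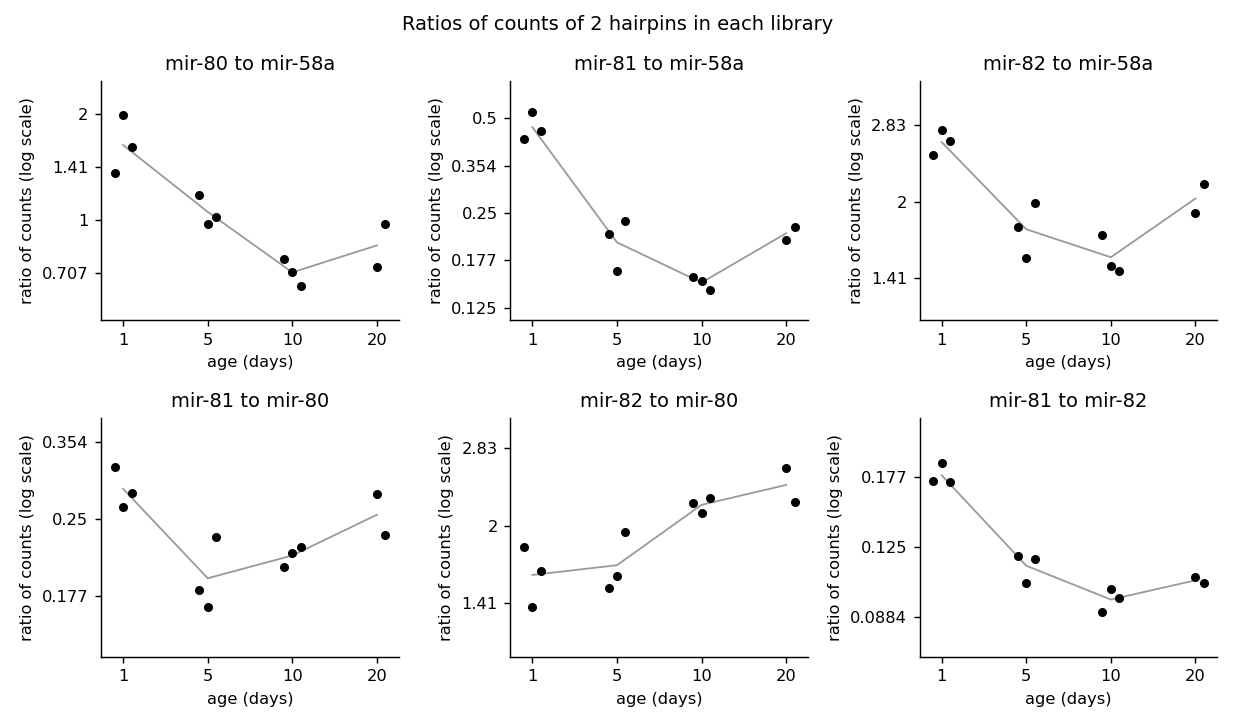
Ratio of the counts of 2 hairpins in each library (vertical axes, log scale, with a different range in each panel) at 4 ages (horizontal axes). Points are libraries and the line joins the means of log ratios by age. In the panel of mir-81 to mir-82, the 1-day libraries lie at 0.172 to 0.190 and all later ones at 0.0909 to 0.120.

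The other hairpins of the table taken as seed relatives were scarce. They were picked by known family names, as no mature sequences were at hand to check seeds, so the list may not be complete. mir-58b, mir-2209a, mir-2209b and mir-2209c together held 0.00693% to 0.0304% of the counts of a library. mir-2209a alone of them passed the test among the 4 ages (adjusted p = 1.33e-09). It averaged 69.7 ± 12.1 CPM at 1 day, 79.3 ± 5.56 CPM at 5 days, 105 ± 4.82 CPM at 10 days and 293 ± 25.9 CPM at 20 days, and it rose by 1.48 ± 0.15 on the log2 scale at 20 against 10 days (SE, adjusted p = 2.86e-07), the comparison in which all 4 abundant members fell. mir-58b had 0 to 21 counts per library and was tested without passing (adjusted p = 0.230). mir-2209b had counts in 2 of 11 libraries and mir-2209c in 8, in each at most 3. A count of 0 allows up to 3 counts, or 1.67 to 3.14 CPM at the depths of these libraries before scaling. Age differences of a few CPM in mir-2209b and mir-2209c could therefore not be seen. The filter on low counts removed both, and neither was tested.

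Near mir-80 on the minus strand of chromosome III lie mir-238, with 1960 bases between them, and mir-90, with 8619, both on the upstream side. mir-238, whose loss is known to shorten life, averaged 3424 ± 131 CPM at 1 day, 6440 ± 652 CPM at 5 days, 7765 ± 852 CPM at 10 days and 8968 ± 226 CPM at 20 days. It rose by 1.39 ± 0.13 on the log2 scale at 20 against 1 day (SE, adjusted p = 3.60e-08), where mir-80 fell by 0.84. mir-90 averaged 14727 ± 873 CPM at 1 day, 9223 ± 2202 CPM at 5 days, 12186 ± 1574 CPM at 10 days and 19259 ± 2413 CPM at 20 days, fell at 5 against 1 day (-0.68 ± 0.15, adjusted p = 0.00140) and rose at 20 against 10 days (0.66 ± 0.17, adjusted p = 0.00309).

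Among the 6 hairpins most abundant outside the 4, mir-40 (112702 CPM on average over the 11 libraries), mir-228 (89450 CPM) and mir-35 (74568 CPM) lay between mir-82 (152254 CPM) and mir-72 (42080 CPM), as did mir-58a (82049 CPM) and mir-80 (80984.5 CPM). mir-70 (22473 CPM) and mir-37 (21235 CPM) lay above mir-81 (18676 CPM).

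Likeness of profile was measured by Pearson's r of log2 CPM over the 11 libraries, as a description, since libraries of 1 age share that age and fall together. mir-58a was most like mir-77 (r = 0.981), which had log2 changes of 1.01, 1.23 and 0.05 at 5, 10 and 20 days against 1 day, followed by mir-48 (0.888) and mir-66 (0.873). mir-80 was most like mir-71 (0.975), a miRNA whose loss shortens life, then the intestinal mir-60 (0.964) and mir-63 (0.962). mir-71 had log2 changes of 0.44, 0.17 and -1.18 at the same ages. mir-81 was most like mir-789-1 (0.960), the developmental timing miRNA let-7 (0.960) and mir-1829b (0.959), of which let-7 had changes of -1.46, -2.07 and -3.81, larger than those of mir-81. mir-82 was most like mir-77 (0.912), mir-47 (0.907) and mir-48 (0.896). Within the family r was 0.899 for mir-58a with mir-82, 0.733 for mir-80 with mir-81, 0.702 for mir-80 with mir-82, 0.469 for mir-58a with mir-80, 0.372 for mir-81 with mir-82 and -0.0201 for mir-58a with mir-81.

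**Figure D5:**
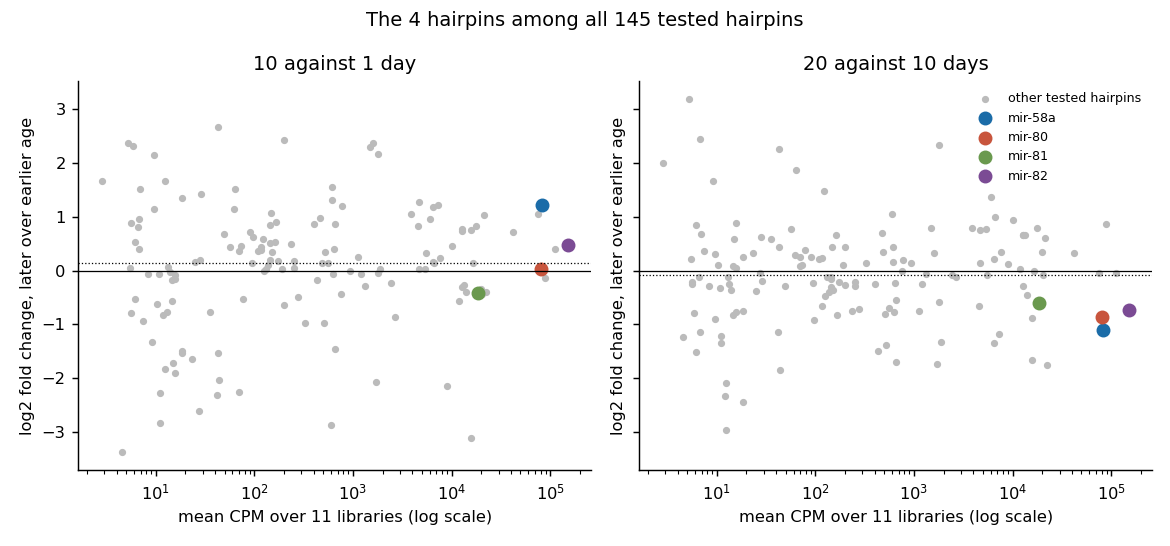
Log2 fold change, later over earlier age (vertical axes), against mean CPM over the 11 libraries (horizontal axes, log scale) for all 145 tested hairpins, at 10 against 1 day and at 20 against 10 days. Coloured points are the 4 hairpins and the dotted line is the median of all tested hairpins, 0.15 and -0.09. On the left the 4 hairpins run from -0.41 (mir-81) to 1.22 (mir-58a), and on the right they lie from -1.11 (mir-58a) to -0.60 (mir-81).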

How the data were processed

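The authors deposited raw read counts per miRNA hairpin, 1 column per library, which are whole numbers that were not normalized. The submitters' processing notes name BWA 0.7.12-r1039, Trimmomatic 0.36, SAMtools 1.3.1-9 and CASAVA 1.8.4. The sources used here do not give the reference, the build or how reads that match several hairpins were counted. Libraries were grouped by labelled age, and replicate numbers only name them. In R 4.3.3, hairpins were kept by filterByExpr (minimum count 10, minimum total 15), which left 145 of 250. Counts were scaled by TMM and tested by edgeR 4.0.16 (quasi-likelihood F-test) in 1 fit to the 11 libraries, where p-values were adjusted over all 145 by the Benjamini-Hochberg method and called under 0.05. The slope on log2 age came from a fit of its own. Each SE is the log2 change, fitted without a prior count, over the root of its F. The fit was tested on simulated data in which most hairpins were unchanged and rises balanced falls. That test could not show how TMM behaves where most hairpins change. Members, lists and tests were chosen with earlier results of these data known. Named hairpins were the 4 members, their seed relatives by known family names, the 3 most alike per member and the 6 most abundant others. mir-238 and mir-90 were added for their position. Alternatives used other scalings and filters, DESeq2 1.42.0, limma 3.58.1, lane terms, fits to 2 ages and left-out libraries.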

Additional observations from a re-analysis of the deposited data

How the results depend on the processing

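No paired analysis was possible because the labels give no replicate numbers. Lane numbers, which 4 lanes share between 2 ages each, entered as a lane term or block. With the fixed lane term, a library alone in its lane added nothing to the age estimates, and few libraries were left to measure spread. The calls of mir-58a at 5 and 10 against 1 day, of mir-80 and mir-81 at 20 against 1 day, of all 4 at 20 against 5 days and of mir-58a, mir-80 and mir-82 at 20 against 10 days and in the middle-age contrast (the middle ages against 1 and 20 days) passed in the same direction under every alternative tried. Where a library of the 20-day group was left out, its lone partner was assumed to vary like the other ages.

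At 10 against 5 days 1 of the 4 members passed, mir-58a as a rise. With RLE factors, total counts, a minimum mean of 50 CPM, DESeq2 or a fit to the 2 ages alone 2 passed, both as falls (mir-80 and mir-81), and mir-58a did not. With upper-quartile scaling 2 passed as rises (mir-58a and mir-82), and with lane as a fixed term 3 passed (mir-58a and mir-82 as rises, mir-80 as a fall). With scaling to the other hairpins or without a filter mir-80 passed as a fall in place of mir-58a, and 0 to 2 passed with 1 library left out. At 20 against 1 day 4 passed with lane as a fixed term and 2 to 3 with 1 library left out. At 5 against 1 day 2 to 4 and at 20 against 10 days 3 to 4 passed with 1 library left out. On log2 age 2 passed (mir-80 and mir-81, as falls) with total counts, a minimum of 50 CPM or age in days, 3 without the 20-day group, 0 with lane as a fixed term, and 1 to 2 with 1 library left out. With lane as a fixed term 34 of all hairpins passed on log2 age, against 70. All 3 ratios passed when mir-81 and mir-82 were summed, and all 6 with 1 library left out. The summed share was lower at 20 than at 1 day by 10.6 percentage points (a difference of -10.6), which became -9.27 with counts outside the mir-35 family as the denominator, -6.73 with TMM-scaled CPM, and -11.5 to -9.68 with 1 library left out.

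Signs turned for changes that did not pass with TMM. For mir-80 at 10 against 1 day the log2 change was -0.11 with RLE factors or DESeq2, -0.26 with total counts, -0.16 with scaling to the hairpins outside the 4, -0.13 without a filter or in the fit to the 2 ages, -0.31 with a minimum of 50 CPM, and -0.16 to 0.0936 with 1 library left out. For mir-82 at 10 against 5 days it was -0.0309 with RLE factors or DESeq2, -0.0334 with scaling to the other hairpins, -0.0361 with total counts, -0.0127 without a filter, -0.0988 with a minimum of 50 CPM, -0.0491 in the fit to the 2 ages, and -0.0100 to 0.22 with 1 library left out. For mir-58a at 20 against 1 day it was -0.0131 with upper quartiles, -0.0927 with total counts, -0.0916 with a minimum of 50 CPM, -0.0682 with scaling to the other hairpins, and -0.00227 to 0.31 with 1 library left out. For mir-81 at 10 against 5 days it was 0.14 with upper quartiles and 0.0405 with lane as a fixed term, and -0.28 to -0.0342 with 1 library left out. In the middle-age contrast mir-81 had -0.0126 with lane as a fixed term and -0.0156 to 0.16 with 1 library left out, negative without replicate 1 at 10 days or replicate 2 at 20 days. The slope of mir-82 on log2 age was -0.0392 with total counts, -0.0225 with scaling to the other hairpins, -0.0458 with a minimum of 50 CPM, -0.0336 with lane as a fixed term, -0.0124 with age in days and -0.0177 to 0.0482 with 1 library left out. The cause of these differences was not tested.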
